A study of Mus musculus with 6 samples.

Results

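The T-box transcription factor gene Eomes and 8 other genes were described in brain RNA of APP/PS1 mice given AVE0991 or saline. Tbx21, Cdhr1, Doc2g, Shisa3, Lmx1a and Calb2 can mark neuron types in which Eomes is used. Sp8 belongs to olfactory bulb interneurons, and Shisa8 encodes an auxiliary protein of AMPA-type glutamate receptors. The 9 genes, Eomes, Tbx21, Cdhr1, Doc2g, Shisa3, Sp8, Lmx1a, Calb2 and Shisa8, were found by symbol among the 36210 gene rows of the deposited table, and 9 of 9 passed the filter on low counts. They were chosen with the difference between AVE0991 and saline in these same libraries already known, so their differences are given as a description with no test.

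APP/PS1 mice express disease-linked human forms of amyloid precursor protein and presenilin and form amyloid plaques, and AVE0991 is a synthetic agonist of the angiotensin-(1-7) receptor Mas. The treated mice received AVE0991 at 10 mg/kg into the peritoneum daily for 30 days, and the vehicle mice received 0.9 percent sterile saline in the same way; all carried the APP/PS1 transgenes and were 8 months old. There were 3 libraries per group, labelled as adult brain astrocytes, with 44583274 to 50066615 counts on gene rows. Neither the number of animals behind a library nor the part of the brain taken is stated in the labels, so errors and p-values cover the spread among these 6 libraries and nothing wider. Astrocyte genes were abundant, but so were those of neurons: the summed level of 10 astrocyte genes was 9736 to 10838 CPM (counts scaled to equal library size, TMM-normalised) in AVE0991 and 8134 to 9670 CPM in vehicle libraries, and that of 8 neuron genes 3948 to 4698 CPM in AVE0991 and 4534 to 5373 CPM in vehicle libraries. Astrocyte markers moved with the group: 9 of the 10 were above 0 (median log2 difference 0.51). In 6 of the 10 every AVE0991 library was above every vehicle library, as in 14.3% of all 20363 genes tested. Of the 10, edgeR called 0, with 6 higher at an unadjusted p under 0.05, while DESeq2 called 5 higher and limma-voom 4. Of all 20363 genes, 4796 had an unadjusted p under 0.05 by edgeR in either direction. DESeq2 called 1012 of them higher and limma-voom 525. The part of the astrocyte markers in the levels of the 9 genes was not tested.

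Eomes, also called Tbr2, is best known in the brain from short-lived progenitors of glutamatergic neurons, and it stays on in a few mature neuron types. In the olfactory bulb these are the mitral and tufted cells, which carry odour signals to the cortex and also use the related factor Tbx21. In the cerebellum they are the unipolar brush cells, excitatory interneurons of the granular layer that can be marked by Lmx1a and Calb2. Outside the brain, Eomes and Tbx21 together control natural killer cells and cytotoxic T cells.

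Eomes was higher in all 3 AVE0991 libraries, and at nearly the same level in each. Its level was 8.18, 8.19 and 7.94 CPM in AVE0991 replicates 1, 2 and 3, and 1.37, 1.33 and 0.777 CPM in vehicle replicates 1, 2 and 3. The groups did not overlap, and the AVE0991 libraries differed by less among themselves than the vehicle libraries did. The mean was 8.1 ± 0.137 CPM in AVE0991 and 1.16 ± 0.331 CPM in vehicle libraries (SD, n = 3 each), a 6.99-fold difference (log2 2.81, SE 0.25). These levels rest on 350 to 410 estimated counts in AVE0991 and 39 to 68 in vehicle libraries. A spread from 3 libraries is poorly known, and counting adds error at these counts. Nothing is therefore read from the smaller spread in AVE0991. In bulk RNA, fewer cells of a type and less RNA per cell cannot be told apart, and the same holds for the higher levels described here.

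The genes that accompany Eomes in mitral and tufted cells did not share this evenness. Tbx21, Cdhr1, Doc2g and Shisa3 were far above the vehicle level in AVE0991 replicate 1 and near or below it in AVE0991 replicates 2 and 3. For Eomes and each of these genes, the 250 bases before the RefSeq start are shown (GRCm38.p6, which is not the build named for the reads). T-box proteins bind a site written AGGTGTGA, and capitals mark its first bases, AGGTGT, on either strand. The windows are chr9:118477939-118478188 (+) for Eomes, chr11:97115332-97115581 (-) for Tbx21, chr14:37098348-37098597 (-) for Cdhr1, chr19:4003135-4003384 (+) for Doc2g and chr5:67607633-67607882 (+) for Shisa3, each printed 5′ to 3′ on the gene's own strand.
Eomes: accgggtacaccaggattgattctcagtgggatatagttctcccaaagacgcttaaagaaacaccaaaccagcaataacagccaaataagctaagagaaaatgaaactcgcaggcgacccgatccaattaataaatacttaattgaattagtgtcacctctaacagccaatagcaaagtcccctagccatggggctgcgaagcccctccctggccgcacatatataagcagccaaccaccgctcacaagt
Tbx21: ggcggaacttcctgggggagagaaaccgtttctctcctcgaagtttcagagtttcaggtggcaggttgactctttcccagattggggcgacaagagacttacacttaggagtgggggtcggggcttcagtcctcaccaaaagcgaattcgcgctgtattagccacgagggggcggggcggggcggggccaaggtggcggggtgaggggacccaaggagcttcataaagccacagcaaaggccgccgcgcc
Cdhr1: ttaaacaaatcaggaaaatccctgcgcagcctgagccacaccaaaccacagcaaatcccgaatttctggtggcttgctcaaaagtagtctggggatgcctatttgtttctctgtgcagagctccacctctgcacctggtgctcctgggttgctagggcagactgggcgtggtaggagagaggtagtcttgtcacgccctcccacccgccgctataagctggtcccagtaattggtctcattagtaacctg
Doc2g: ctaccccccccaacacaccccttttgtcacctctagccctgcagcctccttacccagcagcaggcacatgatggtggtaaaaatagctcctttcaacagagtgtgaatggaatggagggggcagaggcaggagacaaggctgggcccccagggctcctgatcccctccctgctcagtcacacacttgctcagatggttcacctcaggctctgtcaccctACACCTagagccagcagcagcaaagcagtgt
Shisa3: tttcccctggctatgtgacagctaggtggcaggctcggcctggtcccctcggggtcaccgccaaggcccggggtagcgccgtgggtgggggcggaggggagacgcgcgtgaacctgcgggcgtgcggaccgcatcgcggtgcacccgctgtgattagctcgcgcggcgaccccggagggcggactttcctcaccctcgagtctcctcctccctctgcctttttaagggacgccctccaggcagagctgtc

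Of the 9 genes, 8 had such a window, Sp8 with several starts, which made 10 windows. Both strands were searched for 6 strings, and all 6 are given; the string in capitals was chosen after the matches were seen. The T-box site AGGTGTGA was in 0 of these 10 windows and in 1.12% of all 32851 windows of the same length, and TCACACC, which overlaps it on the other strand, in 0 of 10 and 3.33% of all. AGGTGT was in 1 of 10, that of Doc2g, where the match begins 31 bases before the start, and in 11.8% of all windows. GTGTGA, another part of AGGTGTGA, was in 4 of 10, those of Lmx1a, Doc2g and 2 starts of Sp8, and in 12.3% of all. The homeodomain core TAATTA was in 1 of 10 (Sp8) and 4.84% of all, and the E-box CATCTG in 1 of 10 (Doc2g) and 14.4% of all. A match describes letters only.

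Tbx21, the T-box factor that mitral and tufted cells share with cytotoxic lymphocytes, was measured at 5.56, 0.131 and 0.0681 CPM in AVE0991 replicates 1, 2 and 3 and at 0.265, 0.528 and 0.239 CPM in vehicle replicates 1, 2 and 3. These are 279, 6 and 3 counts in AVE0991 and 12, 27 and 12 in vehicle libraries. AVE0991 replicate 1 was 16.2-fold above the vehicle mean, while the other AVE0991 libraries were below every vehicle library.

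Cdhr1, a cadherin-related membrane protein of mitral and tufted cells and of photoreceptors, had 43.55, 4.05 and 3.54 CPM in AVE0991 replicates 1, 2 and 3, against 8.27, 5.81 and 6.02 CPM in vehicle replicates 1, 2 and 3. Again AVE0991 replicate 1 was highest, at 6.5-fold the vehicle mean, and the other AVE0991 libraries were lowest of all 6. Doc2g, a C2-domain protein of a family known from vesicle release, had 23.95, 2.26 and 2.11 CPM in the AVE0991 libraries, against 2.47, 2.41 and 1.65 CPM in the vehicle libraries. AVE0991 replicates 2 and 3 lay within the vehicle range here, and replicate 1 was 11-fold above the vehicle mean. Shisa3, a transmembrane protein of the Shisa family, had 8.04, 1.15 and 0.545 CPM in the AVE0991 libraries, against 0.661, 1.27 and 1.1 CPM in the vehicle libraries. It was likewise high in AVE0991 replicate 1 alone, at 7.96-fold the vehicle mean.

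The zinc finger factor Sp8, needed for interneurons of the olfactory bulb, had the same high library. Its level was 11.29, 1.11 and 0.999 CPM in AVE0991 replicates 1, 2 and 3, and 4.41, 4.87 and 2.79 CPM in vehicle replicates 1, 2 and 3. AVE0991 replicate 1 was 2.81-fold above the vehicle mean and replicates 2 and 3 were 3.62-fold and 4.03-fold below it.

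Of the unipolar brush cell markers, Lmx1a did not follow Eomes and Calb2 did so in part. Lmx1a, a homeodomain factor that also marks midbrain dopamine neurons and the choroid plexus lineage, was near 1 CPM or below in most libraries, at 0.738, 1.76 and 0.431 CPM in AVE0991 and 0.265, 1.27 and 1.37 CPM in vehicle libraries. The groups overlapped fully, with a log2 difference of 0.01 (SE 0.71). Calb2, which encodes the calcium-binding protein calretinin of many neuron types, had 127.06, 191 and 124.97 CPM in AVE0991 replicates 1, 2 and 3, against 29.21, 91.15 and 98.72 CPM in vehicle replicates 1, 2 and 3. Every AVE0991 library was above every vehicle library, and vehicle replicate 1 was far below the other vehicle libraries. The mean was 148 ± 37.5 CPM in AVE0991 and 73 ± 38.1 CPM in vehicle libraries (log2 1.02, SE 0.44), and without vehicle replicate 1 the log2 difference was 0.66.

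Vehicle replicate 1 was also lowest of the 6 libraries in Lmx1a, and in the summed level of 2 of the 3 cell type lists that hold it. The 7 other choroid plexus genes summed to 386, 556 and 385 CPM in AVE0991 and to 138, 1401 and 782 CPM in vehicle replicates 1, 2 and 3. The 12 other genes of midbrain and subthalamic Lmx1a neurons summed to 79.8, 105 and 78.4 CPM in AVE0991 and to 55.2, 158 and 126 CPM in vehicle libraries. The 9 other unipolar brush cell genes went the other way, with 612, 626 and 664 CPM in AVE0991 and 729, 623 and 719 CPM in vehicle libraries, so that vehicle replicate 1 was highest. The part of these lists in the levels of Lmx1a and Calb2 was not tested.

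Shisa8, an auxiliary protein of AMPA-type glutamate receptors, was higher in every AVE0991 library but unevenly, at 9.69, 27.95 and 31.89 CPM in replicates 1, 2 and 3. The vehicle libraries were at 4.01, 4.03 and 3.23 CPM. AVE0991 replicate 1 was 2.58-fold above the vehicle mean, and replicates 2 and 3 were 7.44-fold and 8.49-fold above it, the reverse of the order in Tbx21, Cdhr1, Doc2g and Shisa3. The log2 difference was 2.62 (SE 0.44) with all libraries and 3.00 without AVE0991 replicate 1.

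**Figure D1:**
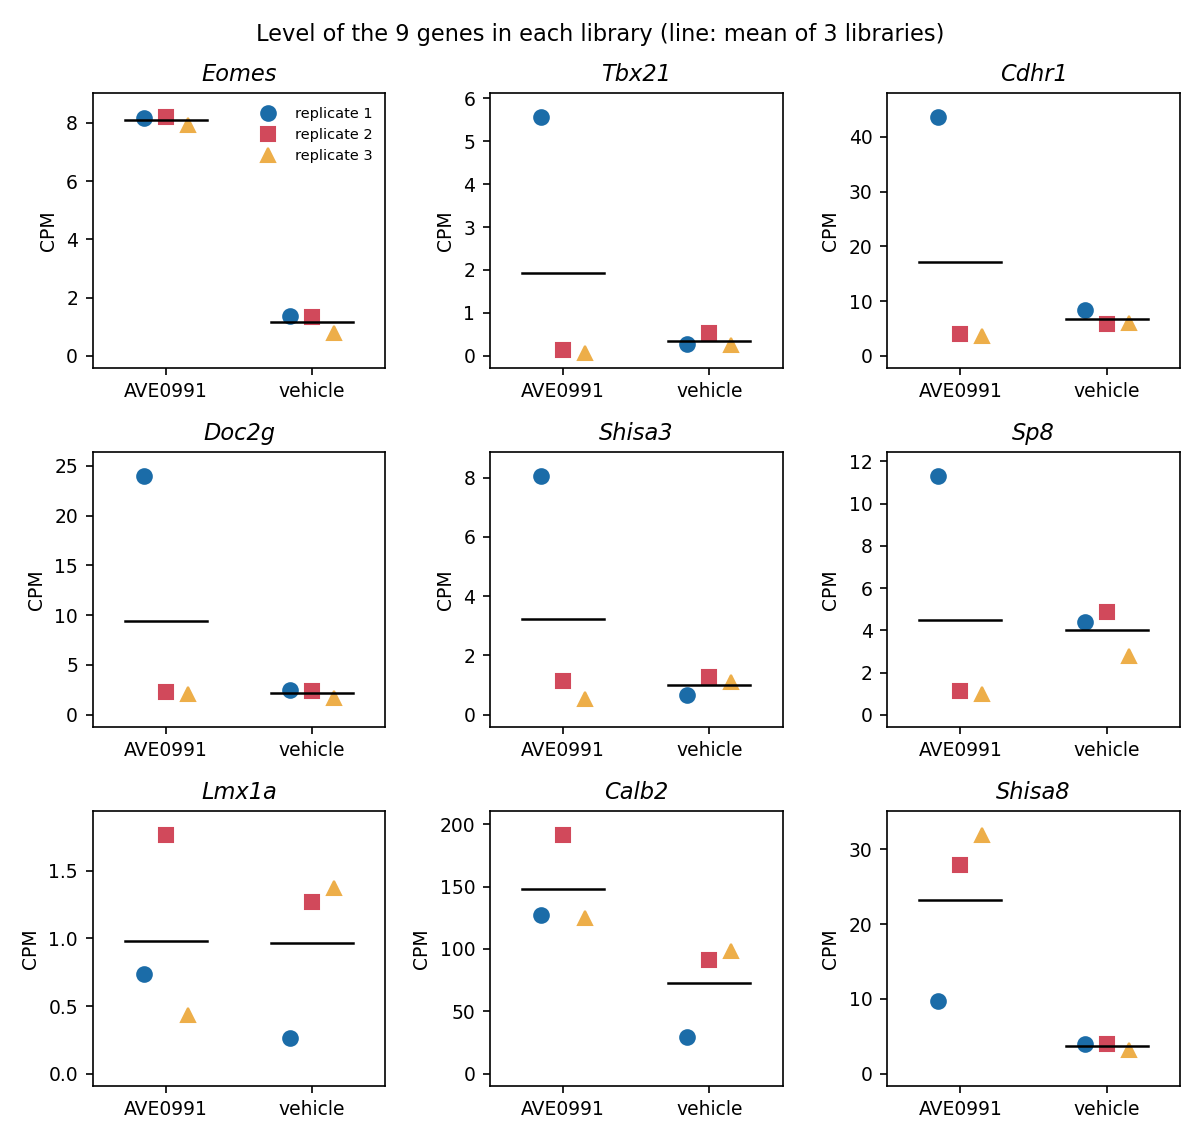
Level of each of the 9 genes in CPM (linear axis) in the 3 AVE0991 and 3 vehicle libraries, 1 point per library with the group mean as a line. Eomes is at 7.94 to 8.19 CPM in all AVE0991 libraries, while Tbx21, Cdhr1, Doc2g, Shisa3 and Sp8 are highest in AVE0991 replicate 1 and Shisa8 is highest in AVE0991 replicates 2 and 3.

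By edgeR, 1 of the 9 genes, Eomes, had an adjusted p under 0.05, beside 0.0344% of all 20363 genes called higher and 0.83% called lower; since the genes were chosen on this contrast, nothing is read from that count. Every AVE0991 library was above every vehicle library in 3 of the 9, Eomes, Calb2 and Shisa8, as in 14.3% of all genes tested, and 6 overlapped between groups. DESeq2, limma-voom and edgeR on genes averaging at least 1 CPM each called Eomes and Shisa8. By edgeR with all libraries the log2 differences of all 9 were above 0, from 0.01 for Lmx1a to 2.81 for Eomes. In the authors' deposited table the log2 difference was 2.83 for Eomes and 2.64 for Shisa8. The authors' deposited table gave a q-value under 0.05 and a higher level to these 2 of the 9 and to 1.78% of its gene rows with a q-value, and nothing is read from that count either.

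The mean differences of 5 of the genes rested on AVE0991 replicate 1. Tbx21 had a log2 difference of 2.48 (SE 1.49) with all libraries and -1.76 without AVE0991 replicate 1. Cdhr1 had 1.35 (SE 0.95) and -0.82, Doc2g 2.12 (SE 0.97) and 0.01, Shisa3 1.68 (SE 0.95) and -0.25, and Sp8 0.15 (SE 0.92) and -1.93, each time with all libraries and without that library. Sp8 also stood at -0.05 without vehicle replicate 3, and Lmx1a at -0.73 without AVE0991 replicate 2 and -0.42 without vehicle replicate 1. For Eomes the log2 difference kept between 2.59 and 2.96 whichever library was left out, and for Shisa8 between 2.33 and 3.00. The edgeR call of Eomes held without AVE0991 replicate 1, when 1386 genes were called higher, 995 lower and 3 of the 9 in all, Eomes and Shisa8 higher and Sp8 lower. It was lost without any other single library, when 0 genes were called and 3205 to 3818 had an unadjusted p under 0.05.

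**Figure D2:**
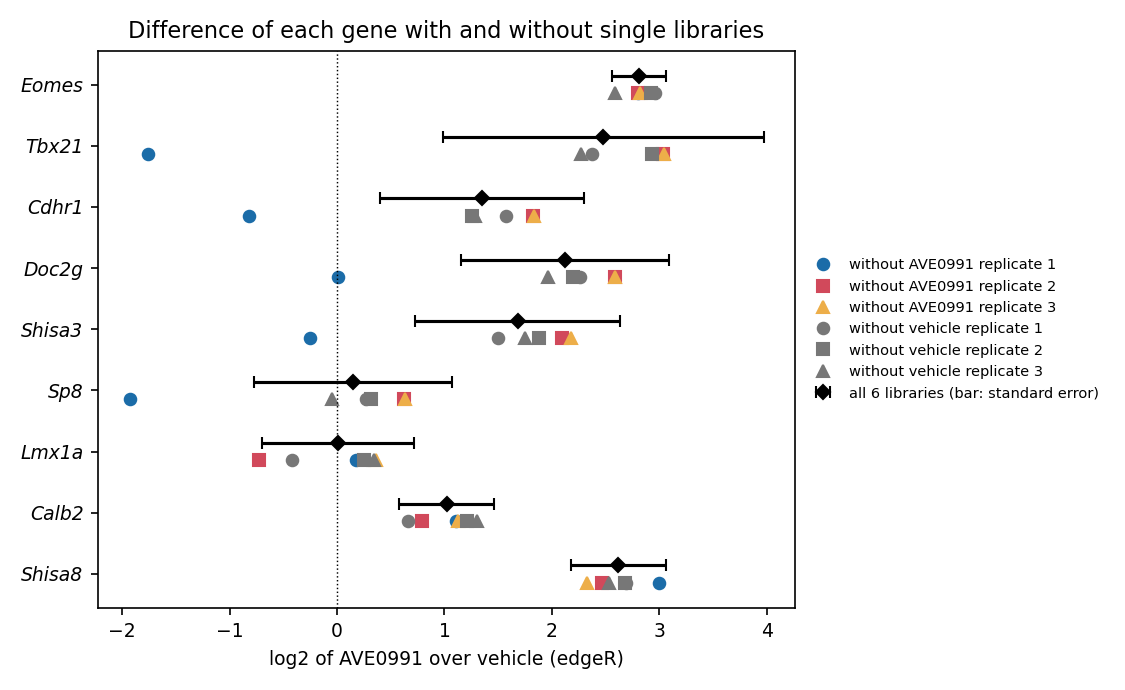
Log2 of AVE0991 over vehicle (edgeR) for each gene with all 6 libraries (diamond, bar: standard error) and with each library left out (other symbols). Without AVE0991 replicate 1 the values of Tbx21, Cdhr1, Shisa3 and Sp8 lie below 0 and that of Doc2g at 0.01, while all values of Eomes lie between 2.59 and 2.96.

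Levels of different genes were compared as FPKM, the authors' value per transcript length. Calb2 was the most abundant, at 104 ± 25.3 FPKM in AVE0991 and 54.8 ± 29 FPKM in vehicle libraries, and Eomes was at 2.21 ± 0.0808 FPKM in AVE0991 and 0.337 ± 0.102 FPKM in vehicle libraries (SD, n = 3 each). Set against Eomes within a library, Tbx21 had 0.978, 0.0225 and 0.0142 times the FPKM of Eomes in AVE0991 replicates 1, 2 and 3, and 0.289, 0.537 and 0.455 times in vehicle replicates 1, 2 and 3. So Tbx21 matched Eomes in AVE0991 replicate 1 and was nearly missing beside it in the other AVE0991 libraries.

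Cdhr1 showed the same split, at 4.49, 0.41 and 0.373 times Eomes in AVE0991 and 5.18, 3.46 and 6.59 times in vehicle libraries. Doc2g was at 7.79, 0.716 and 0.703 times Eomes in AVE0991 and 4.89, 4.56 and 5.77 times in vehicle libraries. In AVE0991 replicate 1 the ratio of Cdhr1 to Eomes lay within the vehicle range and that of Doc2g above it, whereas in AVE0991 replicates 2 and 3 both were below all vehicle libraries. Shisa8 took the other course, with 2.54, 7.41 and 8.76 times Eomes in AVE0991 and 6.11, 6 and 8.91 times in vehicle libraries, so that its ratio was lowest in AVE0991 replicate 1. Low FPKM values are rounded to 2 decimals in the deposited table, which limits the ratios of Tbx21 and Lmx1a most. Because Eomes was higher in every AVE0991 library, a gene with no change of its own also has a lower ratio there. Doc2g in AVE0991 replicates 2 and 3 was such a case, as its CPM lay within the vehicle range.

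**Figure D3:**
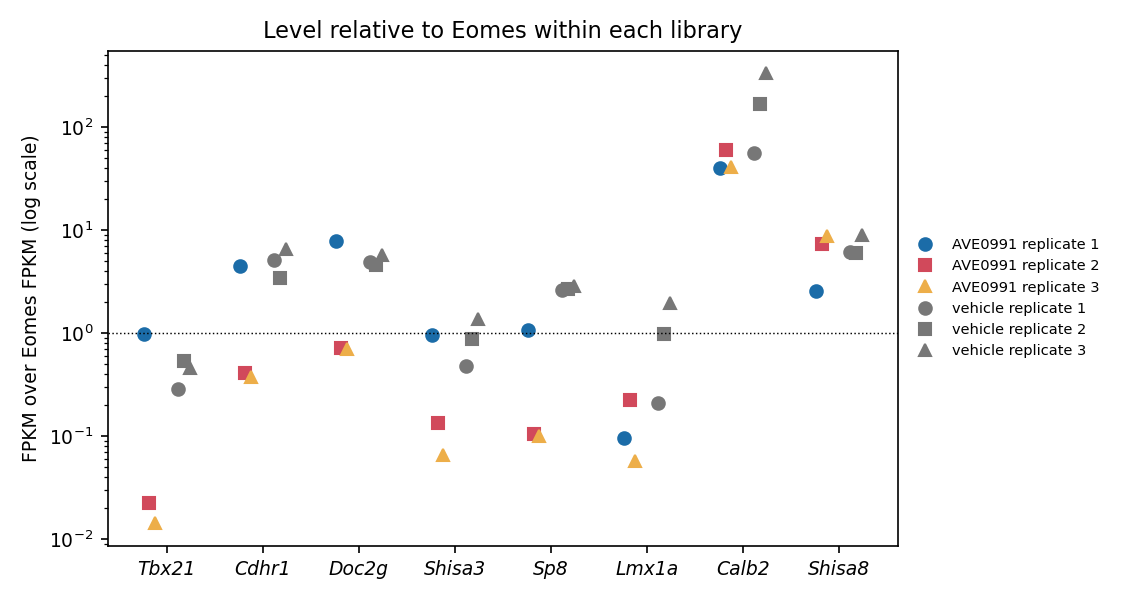
FPKM of 8 genes over the FPKM of Eomes in the same library, on a log axis, with AVE0991 libraries in colour and vehicle libraries in grey. Tbx21, Cdhr1, Doc2g, Shisa3 and Sp8 stand at 0.952 to 7.79 times Eomes in AVE0991 replicate 1 and at 0.0142 to 0.716 times in AVE0991 replicates 2 and 3. Eomes, the divisor, is higher in every AVE0991 library than in any vehicle library, which lowers the ratio of an unchanged gene there.

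The similarity of 2 genes was measured as the root mean square difference of their log2 CPM over the 6 libraries, each gene centred on its own mean. Among the 9 genes the closest pairs were Cdhr1 with Doc2g (0.44), Doc2g with Shisa3 (0.5) and Cdhr1 with Shisa3 (0.55), followed by Eomes with Shisa8 (0.6). Of the others, Calb2 was nearest to Eomes (1.12), then Doc2g (1.4), Shisa3 (1.56), Cdhr1 (1.7), Lmx1a (1.72), Sp8 (2.09) and Tbx21 (2.18). Among 13499 named protein-coding genes with a mean of at least 1 CPM, the nearest to Eomes were Hif3a (0.46), a hypoxia-inducible factor subunit, Tmem52 (0.59), Shisa8 (0.6), Nos2 (0.67), the inducible nitric oxide synthase, Birc7 (0.73), Adprhl1 (0.75), Tdgf1 (0.76) and Slurp1 (0.78). Hif3a had 15.65, 18.57 and 16.27 CPM in AVE0991 and 4.28, 4.5 and 3.9 CPM in vehicle libraries. None of the marker genes of mitral and tufted or unipolar brush cells was among these 8. Nearest to Shisa8 were Birc7 (0.3), Exoc3l (0.34), Tmem52 (0.35), Mrgprf (0.35), Tdgf1 (0.37), Cep72 (0.38), Adamts18 (0.4) and Corin (0.4), and of these Mrgprf stood at 2.23, 13.48 and 13.6 CPM in AVE0991 and 1.54, 1.74 and 1.45 CPM in vehicle libraries.

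Beyond the 9 genes, the wider lists of each cell type were examined with edgeR over all 20363 genes, whose median log2 difference was -0.01. The counts in each list stand beside these over all 20363 genes: 4796 had an unadjusted p under 0.05 by edgeR in either direction. DESeq2 called 1012 higher and 1335 lower, and limma-voom called 525 higher and 770 lower. Of the 12 other mitral and tufted cell genes, 0 were called in either direction, 6 were above 0 and 6 below, and their median log2 difference was 0.05; 3 were higher at an unadjusted p under 0.05, 3 were called higher by DESeq2 and 1 by limma-voom. Tbr1, the T-box factor of cortical and bulb projection neurons, stood at 82.17, 23.47 and 68.61 CPM in AVE0991 and 98.78, 85.73 and 73.46 CPM in vehicle libraries, so it was not raised with Tbx21 in AVE0991 replicate 1. The 3 with the smallest p were Reln, the secreted protein reelin (log2 1.22, SE 0.33, adjusted p = 0.114), Barhl2 (2.93, SE 0.79, adjusted p = 0.116) and Lhx1 (2.26, SE 0.74, adjusted p = 0.145), the last 2 both homeobox genes. Barhl2 was at 2.27, 18.85 and 18.7 CPM in AVE0991 and 1.3, 1.23 and 2.67 CPM in vehicle libraries, so it was high where Tbx21 was low. Of these 12 genes 2 were highest in AVE0991 replicate 1, Lbhd2 and Trh, and 14.3% of all genes tested were. Lbhd2 had 3.49, 0.805 and 0.159 CPM in AVE0991 and 2.07, 3.05 and 2.15 CPM in vehicle libraries. Trh had 17.31, 7.92 and 0.817 CPM in AVE0991 and 6.9, 7.69 and 8.57 CPM in vehicle libraries. These 2 were named after their values were seen. Of the others, 4 were highest in AVE0991 replicate 2 and 1 in AVE0991 replicate 3. Vehicle replicate 1 was highest in 4 and vehicle replicate 3 in 1.

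Among 16 other genes of olfactory bulb interneurons, 11 were highest in AVE0991 replicate 1, beside the same 14.3% of all genes tested, and 0 were called by edgeR. At an unadjusted p under 0.05 1 was higher, and DESeq2 and limma-voom each called 1 higher. Their median deviation from the vehicle mean on the log2 scale was 0.64, -0.48 and -0.77 in AVE0991 replicates 1, 2 and 3, against 0.09, -0.06 and 0.07 in vehicle libraries. Dlx2, a homeobox gene of forebrain inhibitory neurons named after its values were seen, had 13.34, 0.544 and 3.2 CPM in AVE0991 and 7.14, 7.02 and 4.9 CPM in vehicle libraries, highest in AVE0991 replicate 1 and below every vehicle library in replicates 2 and 3, as Sp8 was. The 3 with the smallest p were Pax6, a paired-box factor (log2 1.17, SE 0.34, adjusted p = 0.126), Etv1 (0.83, SE 0.41, adjusted p = 0.266) and Tshz1 (0.32, SE 0.17, adjusted p = 0.299). Pax6 and Etv1, which cerebellar granule cells also express, were highest in AVE0991 replicates 2 and 3. The list includes genes shared with inhibitory neurons of other forebrain regions.

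Of 9 other unipolar brush cell genes, 8 were tested, 0 were called, 3 were above 0 and 5 below, with a median log2 difference of -0.22; 0 had an unadjusted p under 0.05, and 0 were called by DESeq2 or limma-voom. Plcb1, a phospholipase C that acts downstream of G-protein-coupled receptors, had the smallest p (log2 -0.49, SE 0.21, edgeR adjusted p = 0.222). Its level was 211, 126 and 169 CPM in AVE0991 and 278, 196 and 238 CPM in vehicle libraries. Otx2 overlapped between groups, and Sln did not pass the filter, at no more than 0.333 CPM in any library.

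Cerebellar genes separated the AVE0991 libraries in the same way as Shisa8 and opposite to Tbx21. The 11 granule cell genes summed to 1150, 2603 and 3173 CPM in AVE0991 replicates 1, 2 and 3, and to 1368, 1033 and 838 CPM in vehicle replicates 1, 2 and 3. Gabra6, a GABA-A receptor subunit of mature granule cells, had 1.18, 92.98 and 94.51 CPM in AVE0991 and 5.75, 1.76 and 1.55 CPM in vehicle libraries. The 10 Purkinje cell genes summed to 1740, 3289 and 4611 CPM in AVE0991 and to 1526, 1434 and 1675 CPM in vehicle libraries, with Pcp2 at 2.17, 89.41 and 155 CPM in AVE0991 and 5.33, 1.98 and 0.797 CPM in vehicle libraries. Of the 11 granule cell genes edgeR called 0, with 8 higher at an unadjusted p under 0.05, while DESeq2 called 8 higher and limma-voom 5 (median log2 difference 1.82). Of the 10 Purkinje cell genes edgeR called 0, with 6 higher at an unadjusted p under 0.05, while DESeq2 called 6 higher and limma-voom 2 (median 1.02). The 3 granule cell genes with the smallest p were Gabrd (log2 0.81, SE 0.18, adjusted p = 0.0857), Cbln1 (2.86, SE 0.73, adjusted p = 0.109) and Fat2 (4.32, SE 1.14, adjusted p = 0.114). Among Purkinje cell genes they were Foxp4 (0.55, SE 0.14, adjusted p = 0.106), Ppp1r17 (3.19, SE 0.83, adjusted p = 0.111) and Car8 (3.06, SE 0.89, adjusted p = 0.127). Slc17a7, which also stands in the mitral and tufted list and the neuron list, made up much of the granule cell sums. It had 879, 455 and 1060 CPM in AVE0991 and 1124, 779 and 604 CPM in vehicle libraries. The median log2 deviation of the granule cell genes from the vehicle mean was 0.14, 3.25 and 2.45 in AVE0991 replicates 1, 2 and 3. In vehicle libraries it was 0.06, 0.04 and -0.27. The part of the cerebellar genes in the levels of Eomes and Shisa8 in any AVE0991 library was not tested.

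**Figure D4:**
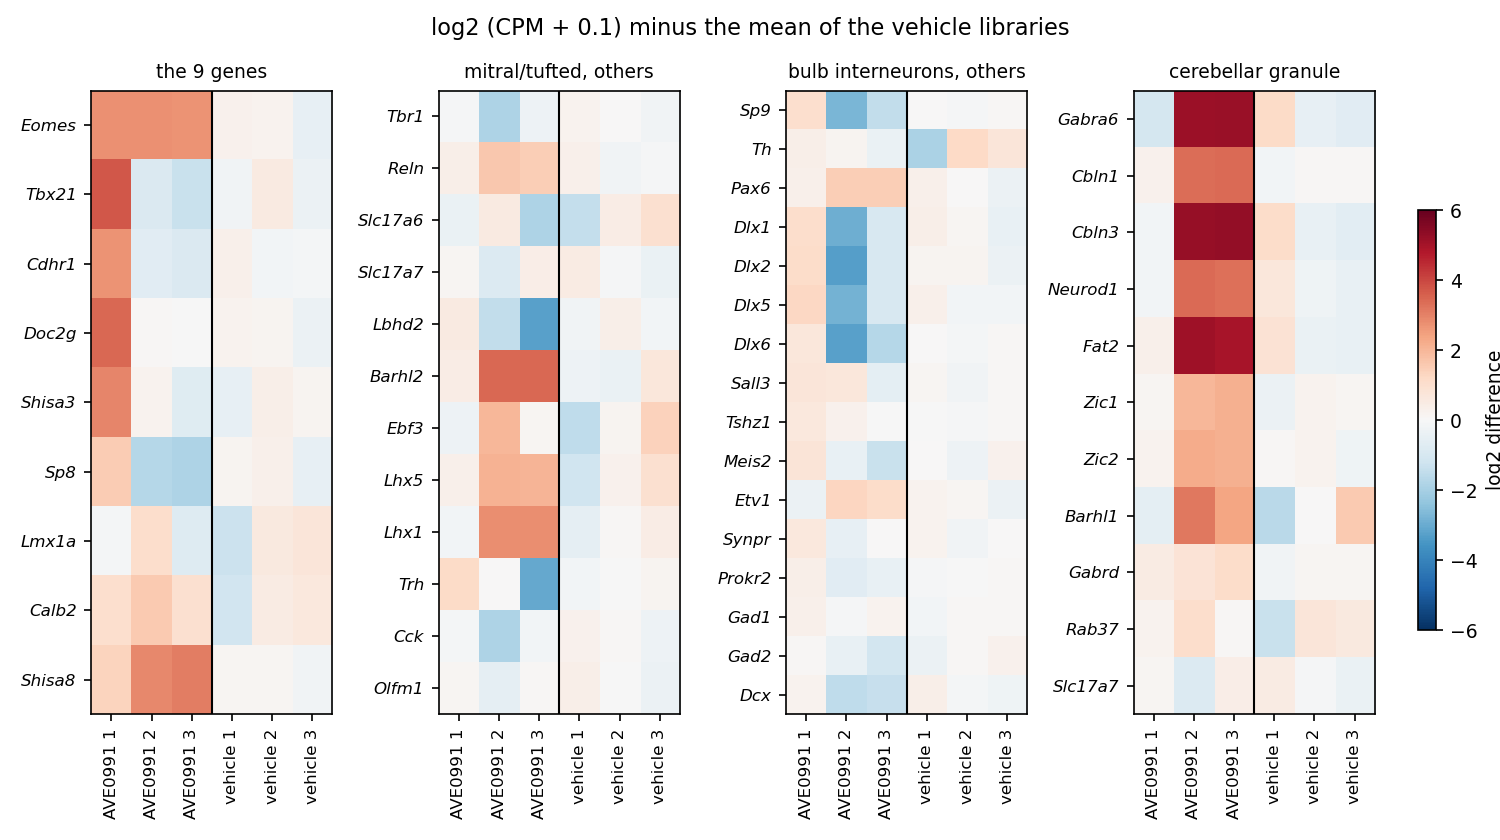
Colour gives log2 (CPM + 0.1) minus the mean of the vehicle libraries, for the 9 genes and 3 lists of other genes (rows) in each library (columns, AVE0991 left of the line). Tbx21, Cdhr1, Doc2g and Shisa3 are red in AVE0991 replicate 1 alone, granule cell genes such as Gabra6 and Fat2 are red in AVE0991 replicates 2 and 3, and Eomes is red in all 3.

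Cajal-Retzius cells are early cortical neurons marked by Calb2 and Reln. The 6 other genes listed for them summed to 208, 481 and 443 CPM in AVE0991 and 202, 150 and 161 CPM in vehicle libraries. Most of each sum was Reln, at 183, 430 and 392 CPM in AVE0991 and 173, 121 and 136 CPM in vehicle libraries. Of the 6, 5 were above 0 and 1, Ndnf, below (log2 -0.60, SE 0.25), with a median log2 difference of 1.04. Which cells these genes came from was not tested. Of the 6, edgeR called 0, with 3 higher at an unadjusted p under 0.05, while DESeq2 called 3 higher and limma-voom 1. By p they were Reln, Lhx1 and Trp73, a p53 family factor (0.85, SE 0.29, edgeR adjusted p = 0.155), and Reln and Lhx1 also stand in the mitral and tufted list.

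Markers of progenitors and of lymphocytes were measured too. Of 11 other genes of neuronal intermediate progenitors, 9 were tested and 0 called, with a median log2 difference of -0.21. The smallest p were those of Gadd45g (0.34, SE 0.16, edgeR adjusted p = 0.244), Sstr2 (-0.38, SE 0.25, adjusted p = 0.387) and Dcx, the microtubule protein doublecortin (-0.69, SE 0.47, adjusted p = 0.416). Gadd45g was higher in every AVE0991 library, at 6.68, 7.82 and 6.74 CPM, than in the vehicle libraries, at 5.82, 6.14 and 4.84 CPM. The proneural gene Neurog2 was at 0.399, 0.196 and 0.499 CPM in AVE0991 and 0.309, 0.333 and 0.398 CPM in vehicle libraries. Their sum was 89.6, 45 and 58.8 CPM in AVE0991 and 92.4, 74.2 and 70.5 CPM in vehicle libraries. Of 11 other natural killer and T cell genes, 2 were tested and 0 called, and all 11 together summed to 1.22 to 1.4 CPM in AVE0991 and 1.08 to 1.43 CPM in vehicle libraries. Ncr1, a receptor of natural killer cells, had 0 counts in every library, while Nkg7 stayed at or under 0.411 CPM and Cd3e, a T cell receptor chain, at or under 0.254 CPM. In both lists 0 genes had an unadjusted p under 0.05 by edgeR, and 0 were called by DESeq2 or limma-voom.

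Of 15 other T-box genes, 9 were tested and 0 called (median log2 -0.04), with Tbx6 (0.74, SE 0.35, adjusted p = 0.257) first by p, then Tbx10 (0.42, SE 0.31, adjusted p = 0.449) and Tbr1 (-0.57, SE 0.42, adjusted p = 0.451), and 0 with an unadjusted p under 0.05. Of 11 other Shisa family genes, 11 were tested and 0 called (median -0.02), led by Wbp1l (0.38, SE 0.12, adjusted p = 0.141), the only one with an unadjusted p under 0.05, then Vopp1 (-0.38, SE 0.19, adjusted p = 0.274) and Shisa9 (-0.20, SE 0.13, adjusted p = 0.382). DESeq2 and limma-voom called 0 genes of these 2 families. Of 19 AMPA receptor subunits and auxiliary proteins 0 were called by edgeR, with a median of -0.20; at an unadjusted p under 0.05 3 were higher and 2 lower, DESeq2 called 2 higher and 1 lower, and limma-voom 2 higher. The smallest p was that of Cacng5, an auxiliary subunit (1.48, SE 0.29, adjusted p = 0.0716), which had 28.41, 50.55 and 58.9 CPM in AVE0991 and 12.56, 19.16 and 17.57 CPM in vehicle libraries. Next were Cacng7, another auxiliary subunit (0.59, SE 0.16, adjusted p = 0.111), and the receptor subunit gene Gria3 (-0.79, SE 0.21, adjusted p = 0.114).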

How the data were processed

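RNA of 3 AVE0991 and 3 vehicle libraries was measured after ribosomal RNA depletion with dUTP in the second strand, per the labels' protocols. Reads were aligned with HISAT to mm9, per the submitters' processing notes. Not given in the sources used here: which program counted reads, whether it used strand, and with which annotation. The authors deposited estimated counts, of which 81.6% were whole on the 36210 gene rows, and FPKM values per library, a unit worked out from the values. A table deposited by the authors gives a log2 fold change, p-value and q-value per row, from DESeq2 per the file headers. Circular RNA rows (11824) were not used here.

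Estimated counts were rounded and tested in R 4.3.3 with edgeR 4.0.16 (filterByExpr, TMM, robust quasi-likelihood F test, Benjamini-Hochberg over 20363 genes, adjusted p under 0.05). SE was taken as the absolute log2 difference over root F, and CPM uses TMM library sizes. Alternatives used DESeq2 1.42.0, limma 3.58.1 (on FPKM with a pseudocount of 0.1) and other filters. Every limma-voom result is from voom with quality weights, so that the libraries did not count equally. In simulated counts for the 20363 genes of AVE0991 against vehicle, 29% of genes changed by a log2 of 1 and 98% of those changed by a log2 of 2 were recovered, and 3 of 130 calls were false. The simulation drew each count independently, with the same dispersion for every gene and no deviation shared by the genes of a library. The real libraries had such deviations, so these rates do not give the power or the error rate in these data. The GC correction used the longest GENCODE transcript, matched for 19032 rows; promoter sequences are RefSeq's (GRCm38.p6).

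The members, lists and tests were chosen with earlier results of these data known. For each cell type or family list discussed gene by gene, up to 3 tested genes with the smallest p were named, with defining markers and the 8 genes nearest to Eomes and to Shisa8; some are not reported here. Counting limits precision most for the genes under 1 CPM.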

Additional observations from a re-analysis of the deposited data

How the results depend on the processing

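The log2 difference of Eomes was above 0 under 14 of 14 alternatives, from 2.43 by limma on log2 FPKM, where the pseudocount lowers it, to 2.97 by limma-voom, and it was called under 7 of them. Genes called higher numbered 1012 by DESeq2, 525 by limma-voom, 58 without a filter, 18 when genes averaging under 1 CPM were dropped, and 1 after the GC correction, against 7. Genes called lower numbered 1335, 770, 379, 329 and 1 in the same order and 287 by limma on FPKM, against 169. With single libraries left out the ranges were 0 to 1386 higher and 0 to 995 lower. With the replicate number as a block 0 genes were called in either direction, 3937 had an unadjusted p under 0.05, and Eomes stood at 2.84. Libraries with the same number share only a number: their deviations correlated at -0.353 to 0.092, and 0 of 3 AVE0991 libraries correlated best with the vehicle library of their own number.

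The median of the mitral and tufted list, 0.05, was -0.24 by limma on FPKM, -0.11 with the replicate block, -0.13 after the GC correction and -0.17 to 0.28 without single libraries. The bulb interneuron median, -0.13, was -0.71 by limma-voom and -0.67 to 0.25 without single libraries, and the unipolar brush cell median, -0.22, was 0.02 by limma-voom. The progenitor median, -0.21, was -0.67 to 0.05 without single libraries. By limma-voom, which here gave each library its own estimated quality weight, Tbx21 stood at -0.71, Cdhr1 at -0.05 and Shisa3 at 0.03. Lmx1a stood at -0.65 and Sp8 at -1.15 by the same method. Sp8 was also at -0.63 by limma on FPKM and -0.76 with the replicate block, Tbx21 at 0.59 and 0.41 in the same order, and Lmx1a at -0.06 by limma on FPKM and after the GC correction. The cause of these shifts was not tested.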

Other observations

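Of the 13499 genes compared, the 8 nearest to Cdhr1 included Frmd7 (0.36), Doc2g (0.44), Shisa3 (0.55), Sp8 (0.61), Nmb (0.65), Kcna5 (0.66) and Gng4 (0.69), by the root mean square difference of centred log2 CPM, a search added after the values were seen. So 3 of these 8 were among the 9 genes described. Frmd7, a FERM-domain protein known from inherited nystagmus, had 6.94, 0.76 and 0.95 CPM in AVE0991 replicates 1, 2 and 3, against 1.17, 1.25 and 0.78 CPM in vehicle replicates 1, 2 and 3. Nmb, the neuropeptide neuromedin B, had 5.58, 1.52 and 1.95 CPM in AVE0991 and 2.23, 2.13 and 1.99 CPM in vehicle libraries. Gng4, a G-protein gamma subunit, had 76.49, 23.99 and 21.47 CPM in AVE0991 and 42.68, 43.15 and 38.48 CPM in vehicle libraries, so that AVE0991 replicates 2 and 3 lay below every vehicle library.

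Slc6a3, the dopamine transporter of the midbrain list that holds Lmx1a, had 5.78, 2.98 and 1.34 CPM in AVE0991 and 1.39, 47.59 and 23.92 CPM in vehicle libraries, with a log2 difference of -2.85 (SE 1.12, edgeR adjusted p = 0.193). Its groups overlapped through vehicle replicate 1, the library that was also low in Lmx1a and Calb2.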
